A study of Mus musculus with 5 samples.

Results

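The 6 genes Clk1, Clk2, Clk3, Clk4, Srpk1 and Srpk2, which encode kinases of SR splicing factors, were described in germinal center B cells that carry or lack a functional alternative NF-κB pathway. They were taken by name from a table of 38924 genes, and all 6 were present once. The set was chosen on the contrast of DKO with WT itself, since Clk4 was among the genes with the smallest p for a higher level in DKO. The difference between genotypes is therefore given for these genes as a description. Outcomes of the tests over all genes are stated for them below, and they support nothing further. Mice of 12 weeks were immunized with sheep red blood cells, and splenic germinal center B cells, named as eGFP+ in the series title, were sorted 7 days later. WT stands for Cg1-Cre mice (n = 3 libraries) and DKO for littermates with floxed alleles of Relb and Nfkb2 together with Cg1-Cre (relbfl/flnfkb2fl/flCg1-Cre, n = 2). All mice therefore carried Cg1-Cre, a recombinase under control of the IgG1 constant region locus that acts once a B cell transcribes that locus. The labels do not say whether each library came from 1 mouse or from a pool, so the spread between libraries may be in part technical.

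SR proteins bind pre-mRNA through RNA recognition motifs and recruit the spliceosome through a tail rich in arginine and serine. SRPK1 and SRPK2 phosphorylate that tail mainly in the cytoplasm, which allows transportin-SR to carry SR proteins into the nucleus and its speckles. The CLK kinases act in the nucleus, where further phosphorylation releases SR proteins from speckles, and phosphatases of the PP1 and PP2A families reverse the marks. CLK1 and CLK4 are close relatives, and their own transcripts are known for retained introns that hold part of the RNA in the nucleus.

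Libraries held 34.0 to 57.6 M reads, of which mitochondrial ribosomal RNA took 47.0% to 70.9%, and 15.4 to 17.7 M reads lay outside the mitochondrial genome. Values are normalized counts, that is, reads divided by a scaling factor of each library that the authors set. Relb had 136, 171 and 117 normalized counts in WT replicates 1 to 3, compared with 56.9 and 10.7 in DKO replicates 1 and 2. Nfkb2 had 657, 601 and 445, compared with 298 and 73.5. Reads of both targeted genes were thus fewer in each DKO library and more numerous in replicate 1 than in replicate 2. Counts cover whole genes, so reads from outside the deleted exons enter them too. All 11 germinal center B cell markers used, with Bcl6 and S1pr2 among them, had reads in every library, and their summed level ranged from 160824 to 231067 in WT and from 153096 to 173154 in DKO. Other lymphocytes contributed unequally. The summed level of 10 T cell markers was 128, 1259 and 63.4 in the WT libraries, compared with 644 and 151 in the DKO libraries, and none of the 10 was at 0 in all libraries. For 7 naive B cell markers, again none of them at 0 throughout, the sums were 12855, 32639 and 16650, compared with 30462 and 18833. WT replicate 2 and DKO replicate 1 thus stood apart from the other libraries of their genotype in these sums. The sums of 6 plasma cell markers were separated by genotype, with 8453 to 11333 in WT and 6837 to 7915 in DKO. Among the 5 of them that were tested, however, only Xbp1 was separated, and Irf4, Prdm1, Jchain and Sdc1 overlapped. Of all tested genes, 23.4% were separated in either direction. The sums of 5 erythroid markers were 24.0 to 41.3 in WT, compared with 241 and 33.9 in DKO. The part of these cells in the results below was not tested.

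The CLK family is also known as the LAMMER kinases, after a signature of that spelling in the catalytic domain. The bases that encode it are shown because they let a reader see how far the family members differ at their most conserved site, and hence how well short reads tell them apart. Windows of 30 bases from GENCODE M21 coding transcripts (GRCm38) are given 5′ to 3′, with the 18 bases of the signature in capitals. In Clk3 no transcript encoded these exact letters, so its window is the one nearest to the other members.
Clk1: gaacatTTAGCAATGATGGAAAGGattctt
Clk2: gagcatCTAGCCATGATGGAAAGGatcctg
Clk3: gaacacTTGGTTATGATGGAGAAGattcta
Clk4: gagcacCTGGCAATGATGGAGCGGatctta

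Even here the pairs differed at 5 to 10 of 30 bases, with 9 differences between Clk1 and Clk4. Over whole transcripts, no run of 50 bases, the length of a read, was shared between any pair of the 6 genes. Reads of Clk1 and Clk4 can therefore be told apart where they match these transcripts without error. Of the 50-base runs of Clk4, 0.177% occurred in transcripts of another gene, against 0.0711% for Clk1 and 0.106% for Clk2. Larger shares were found for Srpk1 (2.86%), Srpk2 (7.82%) and Clk3 (14.1%). Clk3 shares 1284 exonic bases with Edc3 on the other strand, and Srpk2 shares 972 with Kmt2e, so values of these members are uncertain where strand was not used in counting, which is not given in the sources used here.

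On GRCm38 the genes lie on separate chromosomes: Clk1 at chr1:58410189-58424066 on the minus strand, Clk2 at chr3:89164795-89176921 on the plus strand, Clk3 at chr9:57750624-57765860 on the minus strand, Clk4 at chr11:51261730-51281766 on the plus strand, Srpk1 at chr17:28587648-28622709 and Srpk2 at chr5:23503264-23684617, the last pair on the minus strand. The annotation lists 7 transcripts with a retained intron among 13 for Clk1 and 7 among 14 for Clk4, while Clk2 has 4 of 11, Clk3 4 of 9, Srpk1 6 of 13 and Srpk2 3 of 10. The deposited values count each gene as a whole, and spliced and intron-retaining forms were not separated.

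All 6 kinases were expressed in WT germinal center B cells. Clk1 and Srpk1 had the highest levels, with means over the 5 libraries above those of 96.3% of the 13242 tested genes. Clk4 was above 91.2%, Clk2 above 78.7%, Srpk2 above 73.5% and Clk3 above 59.5%. To compare genes, levels were divided by the length of all annotated exons. In WT, Clk1 had 545 ± 118 (SD, n = 3) normalized counts per kb, Srpk1 431 ± 35.8 and Clk4 381 ± 17.1. Clk2 followed with 186 ± 29.3, Srpk2 with 64.1 ± 10.5 and Clk3 with 51.7 ± 14.1. Neighbours in this order overlapped between libraries for Clk1 and Srpk1, for Srpk1 and Clk4, and for Srpk2 and Clk3, while Clk4 and Clk2 were separated, as were Clk2 and Srpk2. With the longest coding transcript as the length, Clk3 (175 ± 47.7 per kb) lay before Srpk2 (137 ± 22.5). On that length Clk1 (2466 ± 535) and Srpk1 (1148 ± 95.3) did not overlap, so their overlap depends on the length used. In DKO, Clk4 had 643 ± 61.9 (SD, n = 2) normalized counts per kb of exon and lay above Srpk1, at 423 ± 87.1, in both libraries.

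Clk4 was the member with the widest gap between the genotypes. WT replicates 1 to 3 had 2097, 2272 and 2265 normalized counts, compared with 3981 and 3473 for DKO replicates 1 and 2. The WT libraries were close together (coefficient of variation 4.47%), and the lower DKO library lay 1201 normalized counts above the highest of them. The DKO mean was 169% of the WT mean, with a log2 fold change of 0.75 ± 0.19 (SE, limma on log2(value + 1)). Between 1959 and 4546 reads per library stood behind these values. BC049762, whose gene overlaps that of Clk4 on the other strand without sharing exonic bases, had at most 12 reads in a library. A small RNA model, Gm25082, shares 59 exonic bases with Clk4 on the same strand.

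Clk1, the relative of Clk4 known for phosphorylating SR proteins in speckles, had a higher mean in DKO with a far wider spread. The WT libraries had 3653, 5504 and 4128 normalized counts, compared with 7845 and 5563 for the DKO libraries. DKO replicate 2 exceeded WT replicate 2 by only 59.3 normalized counts, so the groups met almost without a gap. The DKO mean was 151% of the WT mean, with a log2 fold change of 0.60 ± 0.25. Within each genotype the library with the largest sums of T cell and naive B cell markers had the higher Clk1 level, and these were also the libraries with the lowest share of mitochondrial ribosomal RNA (51.6% in WT replicate 2 and 47.0% in DKO replicate 1). Without WT replicate 2 and DKO replicate 1 the log2 fold change was 0.52 for Clk1, 0.67 for Clk4, 0.34 for Clk2, −0.22 for Clk3, 0.10 for Srpk1 and −0.20 for Srpk2. The part of other lymphocytes and of RNA composition in the Clk1 levels was not tested. In bulk RNA, more cells of a type and more RNA per cell cannot be told apart.

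Clk2, which acts on the same substrates and is also known as a kinase of insulin-responsive metabolism in liver, completed the group of higher members. Its WT libraries had 1015, 818 and 1124 normalized counts, compared with 1353 and 1351 for DKO. The DKO libraries were nearly equal and lay 227 normalized counts above the highest WT library. The log2 fold change was 0.47 ± 0.21, and the DKO mean was 137% of the WT mean. In contrast to Clk1, WT replicate 2 had the lowest Clk2 level of the 5 libraries.

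Clk3, the member whose window departs from the LAMMER spelling, had overlapping levels. The WT libraries had 504.2, 299 and 506 normalized counts, compared with 385 and 433 for DKO, so that the DKO libraries lay inside the WT range. The log2 fold change was −0.06 ± 0.29, and its sign changed with single libraries: without WT replicate 2 it was −0.31 and without WT replicate 3 it was 0.07. Edc3, an mRNA decapping factor whose exons overlap those of Clk3, also had overlapping groups, with 607, 456 and 744 in WT libraries, compared with 565 and 675. Both genes were lowest in WT replicate 2.

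The cytoplasmic kinases had no gap between the genotypes. Srpk1, the more abundant of the pair, had 5491, 4840.1 and 5687 normalized counts in the WT libraries, compared with 4474 and 5998 in the DKO libraries. The DKO libraries thus held both the lowest and the highest value of the 5, and the log2 fold change was −0.04 ± 0.21. Without DKO replicate 1 it was 0.17, and without DKO replicate 2 it was −0.25. Srpk2 had 1059, 793 and 821, compared with 735 and 814, with a log2 fold change of −0.19 ± 0.22. Only DKO replicate 1 lay below every WT library. Kmt2e, a chromatin regulator whose exons overlap those of Srpk2, had 9069.8, 9524 and 4985, compared with 12309.9 and 10572, so its groups were separated in the direction opposite to the mean of Srpk2. Srpk3, a relative best known from muscle, had 482, 445 and 465, compared with 598 and 429.

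**Figure D1:**
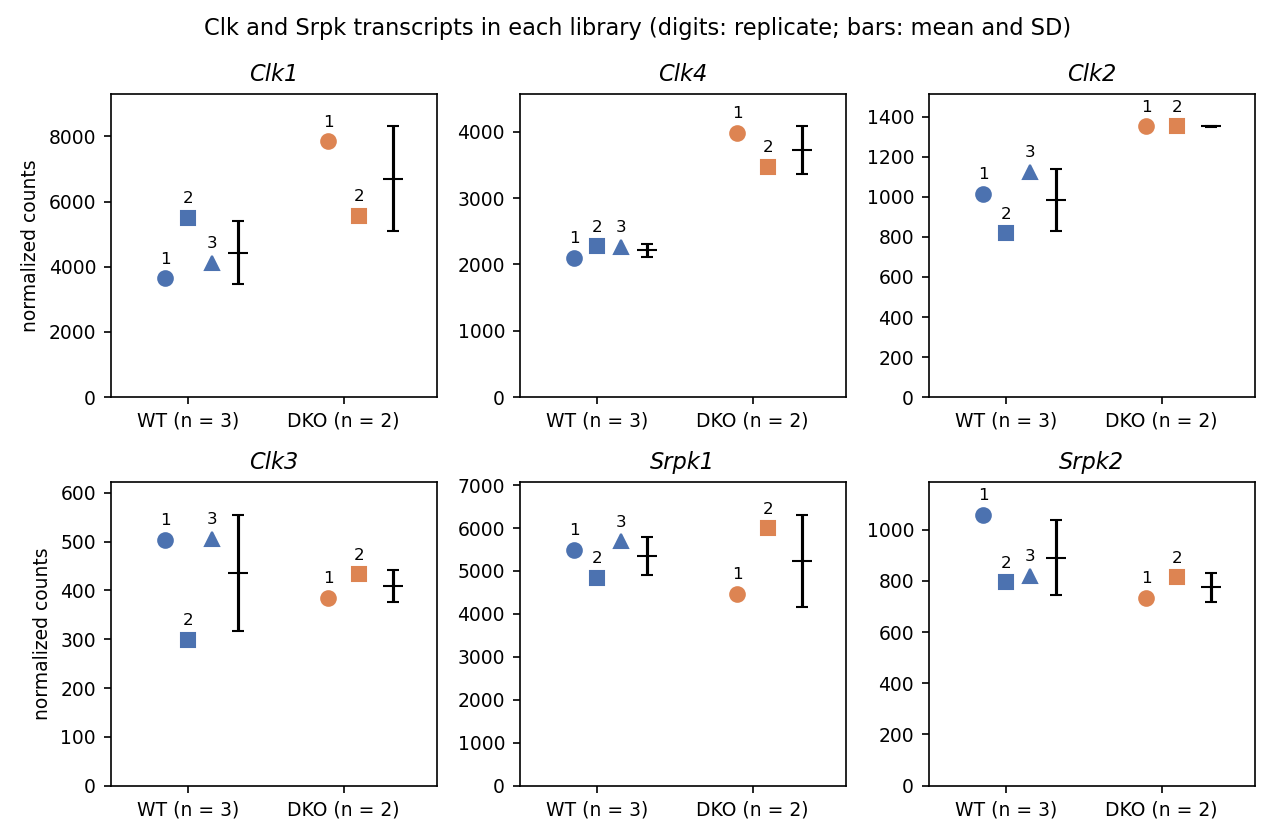
Normalized counts of the 6 kinase genes (y axes from 0, 1 panel per gene) in 3 WT libraries (blue) and 2 DKO libraries (orange), with the replicate number at each point and the mean and SD in black. Clk4 and Clk2 show a gap between the groups, the DKO and WT values of Clk1 nearly meet, and those of Clk3, Srpk1 and Srpk2 overlap.

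Across the family, 3 of 6 members had DKO values that all lay above the WT values, and 12.5% of all tested genes did so, while 0 of 6 lay below, against 11% of all tested genes (23.4% in either direction). Over the 6 members the log2 fold changes had a median of 0.21, against 0.00 over all tested genes. Nothing is read from these counts, since the contrast served to choose the genes. In limma's test 0 of 13242 genes passed an adjusted p of 0.05, and hence no member passed. At an unadjusted p under 0.05 limma had 803 genes (6.06%), of which 489 (3.69%) were higher and 314 (2.37%) lower in DKO. That split was 642 higher and 195 lower after scaling to reads outside the mitochondrial genome, and 358 higher and 382 lower after a correction for length and GC content. Without DKO replicate 1 the balance turned, with 92 higher and 215 lower, and without WT replicate 2 and DKO replicate 1 it was 156 higher and 168 lower. EdgeR on reads recovered from the values likewise called 0 genes, with 748 (5.65%) at an unadjusted p under 0.05. With DESeq2, 16 genes passed as higher (0.121%) and 13 as lower (0.0982%). Clk4 was among the higher ones, at an adjusted p of 0.043 in DESeq2, and no other member passed. Clk4 was chosen on this same contrast, so its call supports nothing further.

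Ratios within a library do not depend on its scaling factor. Clk4 made up 28.9%, 25.5% and 28.2% of all Clk reads in the WT libraries, compared with 29.3% and 32.1% for DKO. The 95% Wilson interval was 27.8% to 29.9% in WT replicate 1 and 28.6% to 30.1% in DKO replicate 1, so the lower DKO library and the highest WT library could not be told apart at this depth. These intervals cover counting error only. Clk1 made up 50.3%, 61.9% and 51.4% of these reads, compared with 57.8% and 51.4%. The share of Clk1 thus varied more between libraries of a genotype than between the genotype means, which were 54.5% in WT and 54.6% in DKO. Clk3 ranged from 3.36% to 6.94% in WT and from 2.84% to 4.00% in DKO.

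Reads of the Clk genes were also divided by reads of Srpk1 and Srpk2, with Srpk3 left out. Such a ratio of whole-gene RNA reads depends on transcript length and does not measure kinase protein, activity or location. The ratio was 1.11, 1.58 and 1.23 for the WT libraries, compared with 2.60 and 1.59 for DKO. DKO replicate 1 was far above the rest, while DKO replicate 2 was almost level with WT replicate 2. For Clk2 over Clk3 the WT libraries had 2.01, 2.73 and 2.22, compared with 3.51 and 3.12, without overlap. How often ratios of other gene pairs do so was not computed. Srpk1 over Srpk2 ranged from 5.19 to 6.93 in WT and from 6.09 to 7.37 in DKO.

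**Figure D2:**
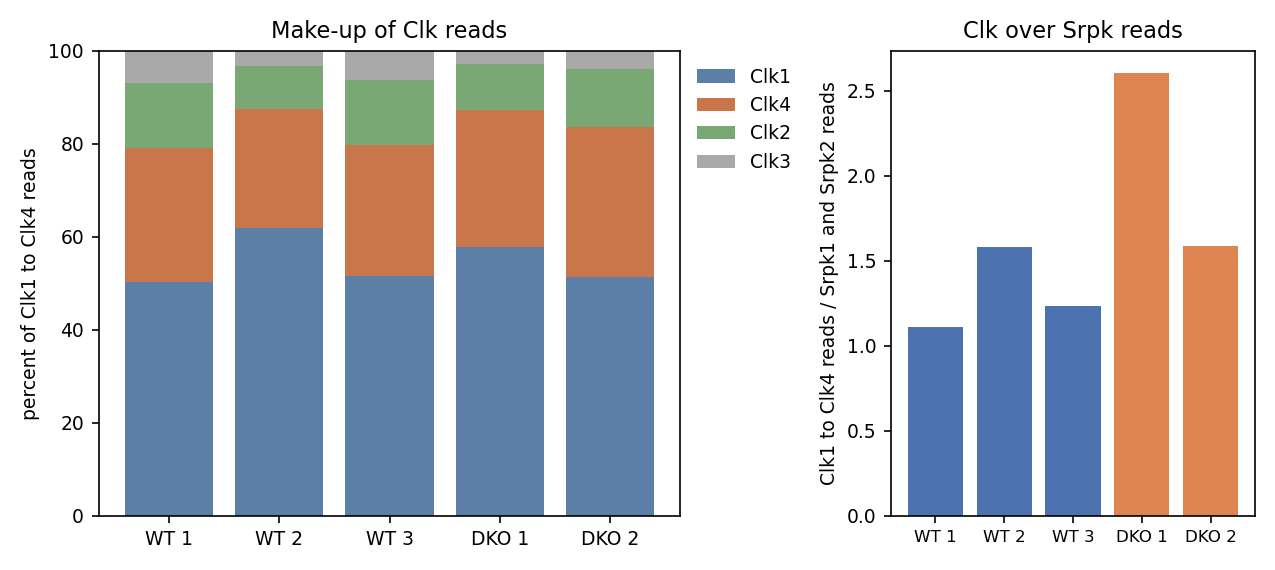
Left, percent of the reads of Clk1 to Clk4 that fell to each gene in the 5 libraries (stacked bars, each adding to 100). Right, reads of the 4 Clk genes divided by reads of both Srpk genes. Clk1 takes 50.3% to 61.9% in every library, and the ratio in DKO replicate 1 (2.60) exceeds the other 4, which lie between 1.11 and 1.59.

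Promoter sequences were read for the member with the widest gap and compared with the rest of the family. RefSeq's table for GRCm38.p6 held an entry for 5 of the 6 members and none for Clk1. The Clk4 promoter, chr11:51262864-51263163 on the plus strand, runs from 250 bases before to 50 bases after the start site and has a GC content of 65.3%, against a median of 52.7% over 32851 promoters. It is shown because it holds a full cyclic AMP response element, the palindrome TGACGTCA bound by CREB and ATF factors, which is in capitals and begins 65 bases before the start site.
Clk4: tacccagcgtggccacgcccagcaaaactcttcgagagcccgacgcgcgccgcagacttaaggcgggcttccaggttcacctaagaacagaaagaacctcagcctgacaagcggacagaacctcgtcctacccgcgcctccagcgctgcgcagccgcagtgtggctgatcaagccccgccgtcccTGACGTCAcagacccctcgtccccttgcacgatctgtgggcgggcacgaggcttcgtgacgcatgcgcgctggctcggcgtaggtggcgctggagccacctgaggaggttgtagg

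This element was present on either strand in 1.79% of the 32851 promoters of the same length, and in none of the other 6 entries of the family (1 each for Clk2, Clk3 and Srpk1, and 3 for Srpk2). It was searched for after the sequence had been seen. The NF-κB consensus motif was found in 8.46% of all promoters and in none of the 7 family entries, searched on both strands. A match or its absence describes the letters of these windows and no more.

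SR proteins are the main substrates of these kinases. Among their 13 genes 12 were tested, of which 10 had a higher and 2 a lower mean log2 level in DKO (median log2 fold change 0.10). Without 1 library that median was 0.05 (WT replicate 2), 0.21 (WT replicate 1) or 0.27 (DKO replicate 1), and without both WT replicate 2 and DKO replicate 1 it was 0.17. Among all 13242 tested genes 6627 were higher. None passed in limma, and 0 had an unadjusted p under 0.05. Srsf5 had 5265, 8250.2 and 4818 normalized counts in WT libraries, compared with 8787 and 8318, a log2 fold change of 0.53 ± 0.26. Like Clk1, it was highest within each genotype in WT replicate 2 and DKO replicate 1, and without these libraries the log2 fold change was 0.72. Tra2b, a splicing activator related to the SR proteins, had 3756, 3390.5 and 3365 against 4947 and 4129, a log2 fold change of 0.37 ± 0.19 (0.24 without DKO replicate 1). Srsf3 (0.31 ± 0.19) and Srsf11 (0.23 ± 0.19) likewise had no overlap between the groups. Of the 12 genes, 4 (33.3%) lay higher without overlap and 0 lower, against 12.5% and 11% of all tested genes. Here too the list was written with earlier results of these data known. Srsf1, the founding member of the class, averaged 8773 ± 472 in WT and 9542 ± 2958 in DKO, with overlap.

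Other proteins with arginine and serine rich domains include spliceosome subunits and speckle components. Of 21 genes tested, 15 were higher and 6 lower (median log2 fold change 0.10). That median was 0.01 after the length and GC correction, 0.19 without WT replicate 1, 0.16 without DKO replicate 1, 0.07 without DKO replicate 2 and 0.20 without WT replicate 2 and DKO replicate 1. Against 3.69% higher and 2.37% lower of all tested genes, 3 higher (14.3%) and 0 lower genes had an unadjusted p under 0.05 in limma. These were Luc7l2, a partner of the U1 particle (0.62 ± 0.24), Pnisr, named SFRS18 in the table (0.57 ± 0.24) and the speckle scaffold Srrm2 (0.52 ± 0.22). Srrm2 had 17925 normalized counts in WT replicate 1, 19141 and 15112 in the other WT libraries, and 23452 and 26399.5 in DKO. The helicase gene Ddx23 went the other way, with 1594, 1567 and 1919 in WT against 1292 and 1241 in DKO and a log2 fold change of −0.41 ± 0.20. None of the 21 passed in limma, and this list too was written with earlier results of these data known.

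Import of SR proteins and removal of their phosphates involve a further group of genes. Of 16 genes for the SR import receptor, phosphatases, chaperones and other partners, 0 were higher and 16 lower in DKO (median log2 fold change −0.24). That median was −0.10 without WT replicate 3 or without DKO replicate 1, −0.37 without WT replicate 2, −0.39 without DKO replicate 2 and −0.18 without WT replicate 2 and DKO replicate 1. Only Akt2, a kinase of the family known to activate SRPK, had an unadjusted p under 0.05, with 1273, 1147 and 1411 in WT against 791 and 887 in DKO (−0.60 ± 0.20). Its relative Akt1 was at −0.47 ± 0.23, and the phosphatase genes Ppp1cb and Ppp2ca were at −0.28 ± 0.19 and −0.24 ± 0.18. The import receptor Tnpo3 averaged 2699 ± 232 in WT and 2543 ± 382 in DKO. No gene of this list passed in limma, and the range of its log2 fold changes was −0.60 to −0.09.

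Related kinases of the CMGC group, to which CLK and SRPK belong, were higher in 13 and lower in 4 of 17 tested genes (median log2 fold change 0.20, and 0.32 without WT replicate 2, alone or together with DKO replicate 1). None passed in limma, and only Hipk2 had an unadjusted p under 0.05. It had 1236.5, 1654 and 893 normalized counts in WT libraries, compared with 2001 and 2152 (0.76 ± 0.27). Dyrk2 (0.65 ± 0.30) and the RNA polymerase II kinases Cdk12 (0.46 ± 0.22) and Cdk13 (0.39 ± 0.22) also had groups without overlap. Of the 17 genes, 6 (35.3%) lay higher without overlap and 1, Dyrk4, lower, against 12.5% and 11% of all tested genes. The list was written with earlier results of these data known. Dyrk4 lay lowest, at −1.02 ± 0.59, with means of 34.6 in WT and 16.2 in DKO. The SR-related kinase Prpf4b averaged 3747 ± 334 in WT and 4475 ± 161 in DKO.

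Transcripts known to stay in the nucleus or to keep introns, the class to which Clk1 and Clk4 belong, were higher in 8 and lower in 0 of 8 tested genes (median log2 fold change 0.64, 0.42 without DKO replicate 1 and 0.55 without WT replicate 2 and DKO replicate 1). Of all 13242 tested genes, 6627 were higher. None of the 8 passed in limma. An unadjusted p under 0.05 was found for 3 higher (37.5%) and 0 lower genes, against 3.69% and 2.37% of all tested genes. Neat1, the scaffold RNA of paraspeckles, had 455, 672 and 322 normalized counts in WT libraries, compared with 1519 and 852 (1.30 ± 0.35). Ogt, a glycosyltransferase gene with a retained intron, had 3693, 4784 and 3014 against 6706 and 5629 (0.71 ± 0.24), and Mdm4 had a log2 fold change of 0.58 ± 0.24. Malat1, the most abundant of the list, had 106568, 111659 and 61832 against 218489.6 and 123660.3 (0.86 ± 0.40). Ogt, Neat1 and Malat1 shared with Clk1 and Clk4 a maximum in DKO replicate 1. Without WT replicate 2 and DKO replicate 1 the log2 fold change was 1.15 for Neat1, 0.75 for Ogt and 0.61 for Malat1, and without DKO replicate 1 alone it was 0.45 for Malat1. Not all 8 genes stayed higher: Ddx17 was at −0.002 without DKO replicate 1, and Ddx5 was at −0.03 without WT replicate 3. This list was written with earlier results of these data known, and its part in the levels of the Clk genes was not tested.

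**Figure D3:**
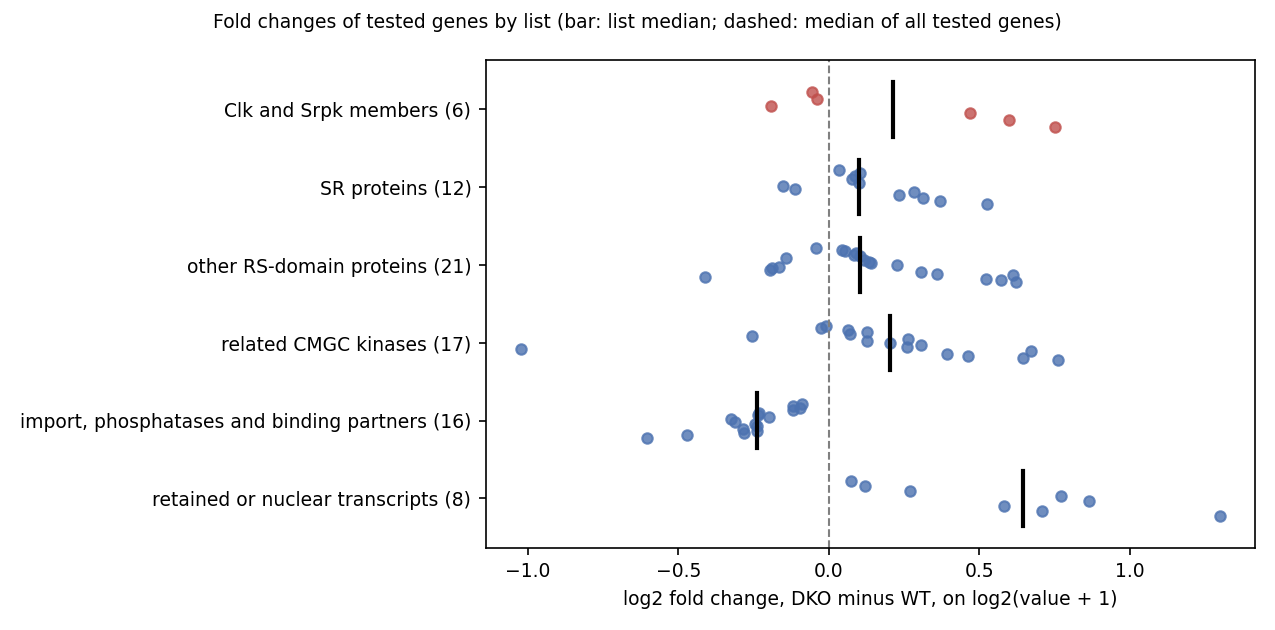
Log2 fold change, DKO minus WT, of each tested gene (points) in the 6 kinase genes (red) and 5 related lists (blue), with the number of genes tested in brackets, list medians as black bars and the median of all tested genes as a dashed line. Import, phosphatase and partner genes lie below 0 in 16 of 16, and retained or nuclear transcripts above 0 in 8 of 8.

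Genes whose pattern was most like that of Clk4 were ranked by the root mean square distance between centred log2 levels over the 5 libraries, among 8713 other genes with a mean of at least 100. The 6 nearest were Zfp142 (distance 0.0789), Btrc (0.0792), Ssbp1 (0.0857), Rint1 (0.0914), Hps5 (0.0933) and Kif13b (0.0949). Zfp142 had 925, 903 and 850.5 normalized counts in WT libraries, compared with 1642 and 1469. Clk1 ranked 142 at a distance of 0.20 and Clk2 ranked 207 at 0.22. Srpk1 ranked 3657, Clk3 5264 and Srpk2 5278. These distances use the same libraries and hence the same contrast on which the genes were chosen, and describe it only.

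The 3 higher members kept their direction under all alternatives that were run, of which the minimum value and the robust fit could not change it. Over 20 alternatives the log2 fold change of Clk4 ranged from 0.65 to 0.85, that of Clk1 from 0.35 to 0.85 and that of Clk2 from 0.34 to 0.57. That of Srpk2 ranged from −0.30 to −0.06. Clk3 and Srpk1 each changed sign in 5 of 20 alternatives. For Clk1 the lowest value arose without DKO replicate 1 and the highest without DKO replicate 2, which leaves 1 DKO library in each case.

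**Figure D4:**
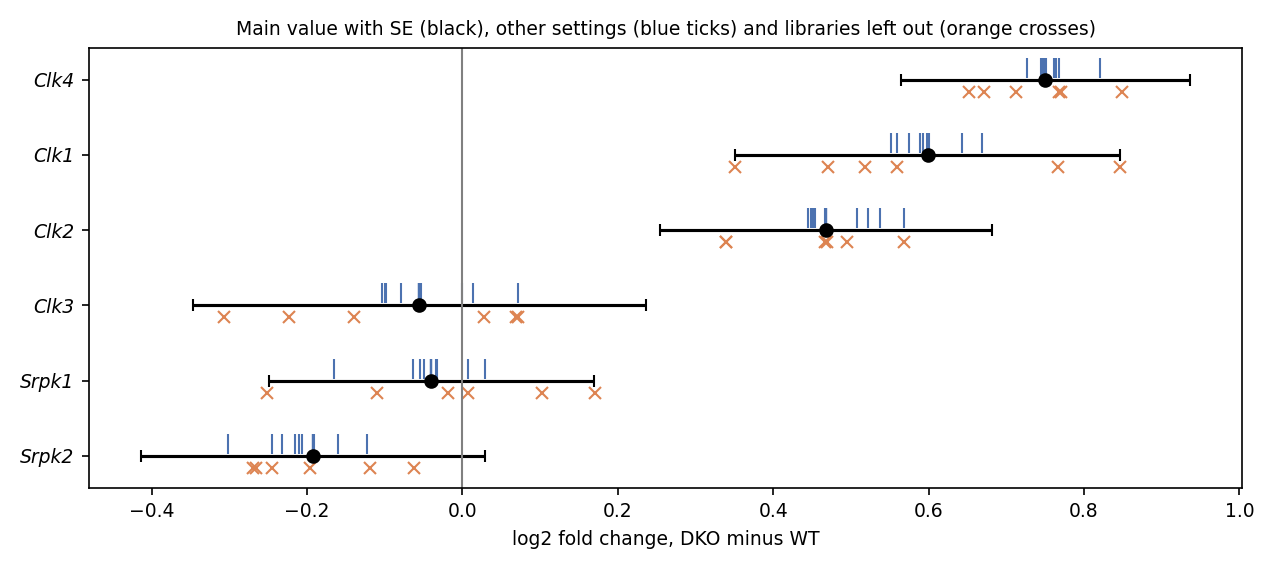
Log2 fold change, DKO minus WT, of the 6 kinase genes, with the main value and its SE in black, other settings as blue ticks and fits with libraries left out as orange crosses. All values of Clk4, Clk1 and Clk2 lie above 0, all of Srpk2 below 0, and those of Clk3 and Srpk1 fall on both sides.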

How the data were processed

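RNA of sorted cells was amplified with the NuGEN Ovation RNA-Seq System V2 before paired-end sequencing, per the labels' protocols. CASAVA 1.8.2, TopHat2 2.0.4, Cufflinks 2.0.2 and mm9 are named in the submitters' processing notes. The sources used here do not give how reads were counted, on which annotation or whether by strand. The signal that the authors deposited behaves as reads times 1 factor per library: at least 99.99% of values were whole multiples, within 0.01, of the value of a single read, which gave back the reads. Of 38924 names, 35853 were found in GENCODE M21 or RefSeq (GRCm38.p6), whose build differs from that of the submitters.

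Libraries were grouped by genotype. For genes with a mean of at least 10, limma 3.58.1 (R 4.3.3) gave two-sided p-values on log2(value + 1), using its mean-variance trend and Benjamini-Hochberg adjustment, on 3 residual and 5.92 prior degrees of freedom. Fold changes of low genes are understated on this scale. EdgeR 4.0.16 and DESeq2 1.42.0 were run on recovered reads, and the limma script was tested on simulated data. At an adjusted p under 0.05 it called 11.5% of genes changed 2-fold, 60.7% changed 4-fold and 78.3% changed 8-fold. Of unchanged genes it called 0.0705%. A gene that did not pass in limma may thus still differ. Alternatives were the pseudocount, the minimum value, scaling, the replicate block, robust and weighted fits, length and GC content, and libraries left out. Scaling to reads outside the mitochondrial genome was added after seeing the data. A repeated gene name (2 of 138 listed genes) was represented by its row with the highest mean, and 2 listed genes found no match. A further marker is not reported here.

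The members, the lists and the rules were chosen with earlier results of these data known. Named are the members, up to 4 genes per list by smallest p and the 6 genes most like Clk4. Srsf1, Tnpo3, Srpk3, Prpf4b, Dyrk4, Edc3, Kmt2e and BC049762 are not under this rule; their values had been seen when they were picked.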

Additional observations from a re-analysis of the deposited data

How the results depend on the processing

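Of 120 values of the members under 20 alternatives, 116 moved by less than the gene's own pooled SD between libraries. The other 4 were those of Clk4, at 0.65 and 0.85, and of Srpk1, at 0.17 and −0.25, without DKO replicate 1 and without DKO replicate 2. The minimum value and the robust fit cannot change a log2 fold change, so part of this count was fixed in advance. The replicate block repeats the value without WT replicate 3. The pooled SD was 0.32 for Clk1 and 0.096 for Clk4, so a shift that counts for Clk4 may not count for Clk1. Leaving out 1 library gave 0.35 to 0.85 for Clk1, 0.34 to 0.57 for Clk2, −0.31 to 0.07 for Clk3, 0.65 to 0.85 for Clk4, −0.25 to 0.17 for Srpk1 and −0.27 to −0.06 for Srpk2. Medians of all 5 related lists kept their sign under the 20 alternatives. The number of genes with an adjusted p under 0.05, 0 at the main setting, was 2 with library weights, 29 with DESeq2 and 0 to 1 with 1 library left out. Genes with an unadjusted p under 0.05 numbered 1292 with no minimum value, which tests more genes, 324 without WT replicate 2 and DKO replicate 1 and 307 to 1105 with 1 library left out, the lowest without DKO replicate 1. The cause of these shifts was not tested.

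Whether the replicate numbers pair the libraries could not be decided. Same-numbered libraries had deviations from the group means that correlated at 0.00 (number 1) and −0.28 (number 2). With 2 DKO libraries, their deviations are mirror images of each other, so WT replicate 2 correlated at 0.28 with DKO replicate 1. With the replicate block, 36 genes passed, no member among them, and the members stood at 0.77 (Clk4), 0.56 (Clk1), 0.57 (Clk2), 0.07 (Clk3), 0.01 (Srpk1) and −0.25 (Srpk2). Replicate 3 exists only in WT, so that library adds nothing to the blocked contrast, which has 1 residual degree of freedom. With 2 DKO libraries, a fit without 1 of them does not see the spread within DKO. Depth was 290 to 8958 reads per member and library, and the pooled SD of log2 levels ranged from 0.096 (Clk4) to 0.36 (Clk3). The near equality of Clk2 in DKO (mean 1352, SD 1.20) rests on 2 libraries and does not measure their usual spread.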
